A study of Homo sapiens with 6 samples.

Results

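Transcripts of 9 genes of blood coagulation and plasminogen activation were examined after knockdown of VprBP, the protein encoded by DCAF1. The genes were THBD, PROCR, F3, TFPI, TFPI2, PLAT, PLAU, PLAUR and SERPINE2, taken by name from the 21494 genes of the table, of which 16756 were tested. All 9 passed the filter on low counts. They were selected on measured differences between these groups, above all on the counts of THBD, so their levels are described without a test. The sample titles name G361, a human melanoma cell line, while the source field of the labels gives another name, as described below. The question was which genes respond to VprBP depletion. Control sh samples (3) carried a control shRNA and are labelled wild type, and VprBP sh samples (3) carried an shRNA against DCAF1 and are labelled as knockdown. Per the study's methods the VprBP shRNA was delivered by lentivirus and cells were selected with puromycin, and how the control shRNA was delivered is not given in the sources used here. The labels do not say that replicates came from separate cultures, so p-values measure only the spread between these samples.

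Thrombomodulin, the product of THBD, is a cell-surface receptor that turns thrombin from a clotting enzyme into an activator of protein C, and the receptor encoded by PROCR presents protein C to it. Tissue factor, encoded by F3, starts coagulation by binding factor VII, and TFPI blocks that complex. The plasminogen activators encoded by PLAT (tissue type) and PLAU (urokinase) make plasmin, urokinase is held at the cell surface by the receptor encoded by PLAUR, and serpins such as SERPINE2 inhibit them. Some of these genes, such as THBD and PROCR, are best known from endothelium, and several are also made by epithelial and tumour cells.

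Promoter sequences are shown for 4 of the genes, because they differ in the AP-1 motif TGANTCA and because the transcript of 1 AP-1 subunit, FOSL1, was lower in VprBP sh. RefSeq windows on GRCh38.p14 were found for 7 of the 9 genes, and not for THBD or PLAT. Each line gives the 250 bases before the transcript start, on the strand of the gene, with AP-1 matches in capitals. F3 (chr1:94541760-94542009), TFPI2 (chr7:93890754-93891003) and PLAUR (chr19:43670170-43670419) hold at least 1 match, and TFPI (chr2:187554436-187554685), the gene that was higher in VprBP sh, holds none. All 4 genes lie on the minus strand, and the TFPI window belongs to a start inside the span that the table gives for that gene.
F3: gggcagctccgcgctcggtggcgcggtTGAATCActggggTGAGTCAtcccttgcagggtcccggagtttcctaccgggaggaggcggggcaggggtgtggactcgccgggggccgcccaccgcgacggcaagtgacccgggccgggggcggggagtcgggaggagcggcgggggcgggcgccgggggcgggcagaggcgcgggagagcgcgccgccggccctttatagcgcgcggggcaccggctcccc
TFPI2: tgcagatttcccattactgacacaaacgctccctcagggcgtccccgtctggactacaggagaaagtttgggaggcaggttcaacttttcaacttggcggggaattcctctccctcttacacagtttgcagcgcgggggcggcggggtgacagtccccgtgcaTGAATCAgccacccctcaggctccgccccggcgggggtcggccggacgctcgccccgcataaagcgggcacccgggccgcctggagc
PLAUR: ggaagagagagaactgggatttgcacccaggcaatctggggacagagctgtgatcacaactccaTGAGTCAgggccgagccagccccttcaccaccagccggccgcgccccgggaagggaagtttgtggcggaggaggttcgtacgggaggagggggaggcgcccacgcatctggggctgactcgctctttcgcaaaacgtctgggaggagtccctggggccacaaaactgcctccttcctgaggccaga
TFPI: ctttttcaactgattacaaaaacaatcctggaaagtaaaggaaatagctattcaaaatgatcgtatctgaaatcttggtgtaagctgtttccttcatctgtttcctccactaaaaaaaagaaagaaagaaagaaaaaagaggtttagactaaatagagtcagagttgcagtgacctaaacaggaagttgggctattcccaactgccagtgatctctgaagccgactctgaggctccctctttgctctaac
The first match begins 223 bases before the F3 start and the second 210 bases before it, against 87 bases for TFPI2 and 186 for PLAUR. The PROCR, PLAU and SERPINE2 windows held no match, and these genes were lower in VprBP sh as well. Sequence farther from the start, such as enhancers, was not searched for any gene. Whether the motif or FOSL1 bears on the levels of these genes was not tested. Over windows that also include 50 bases after the start, 7.71% of 35116 promoters held TGANTCA, 59.9% held the KLF-type motif CACCC and 45% held the SP1 motif GGGCGG, each on either strand. F3 held 3 CACCC and 4 GGGCGG motifs, and its AP-1 match at 210 bases overlaps a CACCC motif. TFPI2 held 3 and 2, PLAUR 1 and 0, and TFPI neither. The observed to expected CpG ratio was 0.86 in F3, 0.82 in TFPI2, 0.59 in PLAUR and 0.35 in TFPI, against a median of 0.579 over all promoters.

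Before the members are described, the samples need some background. Rounded totals ran from 18195926 to 26883925 counts. DCAF1 itself had 688, 893 and 884 counts in the controls and 681, 488 and 628 in VprBP sh. Upper quartile scaling divides counts by a factor per sample (normalized counts). On that scale the means ± SD (n = 3) were 860 ± 89.7 and 577 ± 153, and the groups did not overlap. In TPM, counts per length scaled to the same total in each library, the groups did overlap. The controls were at 20.3, 24.8 and 21.3 TPM and VprBP sh at 21.4, 14 and 13, with VprBP sh replicate 1 among the controls. The log2 fold change was -0.58 (SE 0.17; adjusted p = 0.0125, edgeR's quasi-likelihood test), which is under the 2-fold limit used for a call. With library size alone it was -0.37 (adjusted p = 0.0851), and over the alternatives the adjusted p ran from 0.000188 to 0.0851. Replicate 1 stood apart in both groups, with a median absolute log2 difference of 0.164 to 0.208 from replicates 2 and 3 of its group, which differed from each other by 0.065 in Control sh and 0.058 in VprBP sh. Beside the line name G361, the source field of the labels reads LD611. Of 7 melanocyte-lineage markers, 4 were in the table, MITF at 154 to 312 counts, PMEL at 28 to 46 counts, and MLANA and TYRP1 at 5 counts or fewer in every sample. TYR, DCT and SOX10 were not in the deposited table, in which every gene sums to at least 10 counts over the 6 samples. Summed normalized counts of the 4 were 197 to 234 in the controls and 242 to 305 after knockdown. The 6 urothelial markers in the table summed to 92525 to 103939 in the controls and 24142 to 27532 after knockdown, with UPK1B at 0 in every VprBP sh sample and UPK1A at 5 counts or fewer throughout. KRT5 and KRT7 made up most of that sum, and GATA3 went the other way, at 7, 1 and 0 counts in the controls and 1580, 1334 and 1873 in VprBP sh. Their part in the results below was not tested. In bulk RNA, fewer cells of a type and less RNA per cell cannot be told apart.

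VprBP sh samples had lower levels of 8 of the 9 genes and a higher level of TFPI. By the call rule (adjusted p under 0.05 and a fold change over 2), 8 members were called down and 1 up, where 22.0% of all genes tested were called down, 24.5% up and 46.4% in either direction. The groups did not overlap for any of the 9, as for 79.5% of all genes tested. THBD, TFPI2 and PLAT were at 3 counts or fewer in every VprBP sh sample, as were 5.71% of the genes tested. The rule used this contrast, so nothing is read from these shares. Scaled to the library total (CPM), the 9 genes summed to between 2170 and 2262 in the controls and between 167 and 186 after knockdown.

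**Figure D1:**
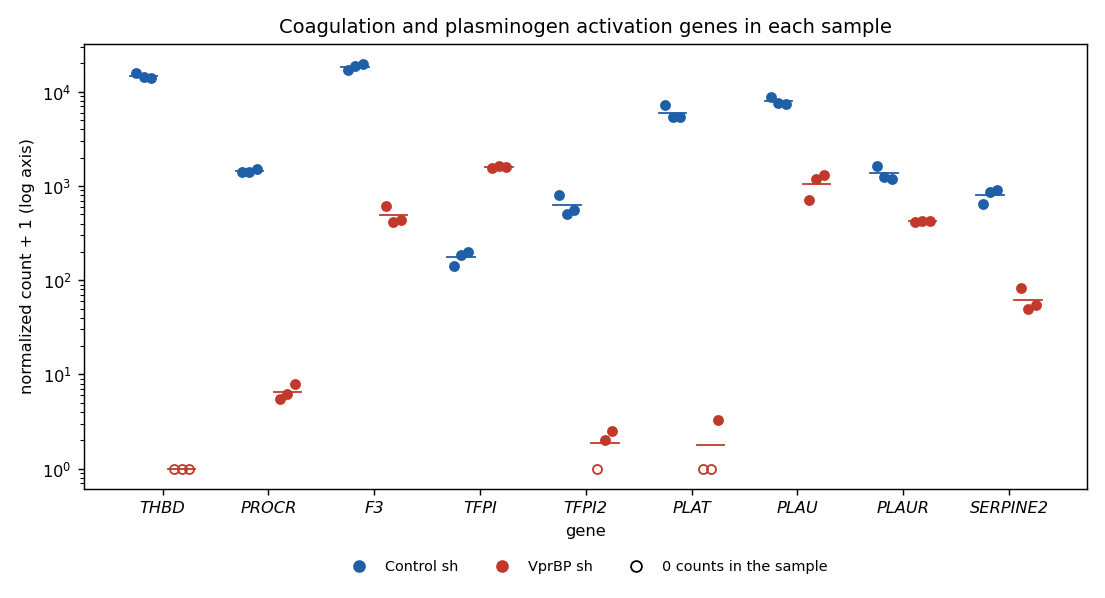
Normalized counts plus 1 of the 9 genes in each sample, on a log axis, with a line at the group mean and open circles for 0 counts. Control sh points lie above VprBP sh points for every gene except TFPI, and the spread within a group is small beside the distance between groups.

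THBD (chr20:23045633-23049672, minus strand, a single exon) had 13877, 13410 and 14900 counts in the controls and 0, 0 and 0 in VprBP sh. The transcript was abundant in every control sample and not detected in any knockdown sample. From a control mean of 14780 ± 1015 normalized counts (SD, n = 3), the level was at least 5109-fold lower, taken against 3 counts per library, a limit that covers counting error only. No other annotated gene overlaps THBD. PROCR (chr20:35172072-35216240, plus strand), the endothelial protein C receptor, had 1240, 1305 and 1612 counts in the controls and 4, 5 and 9 in VprBP sh. The few counts that remained were present in all 3 knockdown samples. Its level was 252-fold lower (log2 -7.98, SE 0.16), from 1447 ± 58.1 to 5.46 ± 1.24 normalized counts. MMP24OS lies antisense over part of PROCR, and strand use in the counting is not given in the sources used here, so their reads may be shared. MMP24OS had 1749, 1471 and 1574 counts in the controls and 390, 501 and 661 in VprBP sh, so that it kept far more of its counts than PROCR. Both components of protein C activation at the cell surface were thus low together, but not equally: the ratio of THBD to PROCR, in counts per kb of exon, was 4.7, 4.32 and 3.88 in the Control sh samples and 0 in each VprBP sh sample.

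Tissue factor and its inhibitor differed in opposite directions. F3 (chr1:94529173-94541759, minus strand) had 14822, 17675 and 20942 counts in the controls and 557, 405 and 567 in VprBP sh. Every knockdown sample was far below every control, yet the transcript remained well detected. Mean normalized counts were 18561 ± 1383 and 488 ± 111, a 38.2-fold lower level (log2 -5.25, SE 0.17). TFPI (chr2:187464230-187565760, minus strand) had 122, 172 and 211 counts in the controls and 1398, 1573 and 2093 in VprBP sh. It was the only member whose knockdown samples all lay above the controls, at 1584 ± 36.6 against 174 ± 30.5 normalized counts, or 9.05-fold higher (log2 3.18, SE 0.13). The lncRNA CALCRL-AS1 overlaps TFPI antisense and had 8 to 56 counts per sample. The ratio of F3 to TFPI, in counts per kb of exon, was 493, 417 and 403 in Control sh and 1.62, 1.05 and 1.1 in VprBP sh. The length used was that of all annotated exons together, 2886 bases for F3 and 11714 for TFPI. On this scale the initiator transcript far exceeded that of the inhibitor in the controls and was close to it in the knockdown. In counts without length scaling, TFPI was above F3 in every VprBP sh sample.

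TFPI2 (chr7:93885396-93890753, minus strand) encodes a related Kunitz-type inhibitor that acts on plasmin and other matrix-degrading proteases more than on tissue factor. It had 691, 471 and 598 counts in the controls and 0, 1 and 2 in VprBP sh. Despite the shared family name it was low where TFPI was high. Its group ratio was 654-fold lower, with a 95% counting interval of 223 to 3174 that covers counting error only, from a control mean of 620 ± 152 normalized counts. On the log2 scale the ratio was -9.35, and -10.17 without VprBP sh replicate 3. GNGT1, not in the table analysed, overlaps TFPI2 on the other strand.

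Both plasminogen activators were lower in VprBP sh, one nearly to 0 and the other in part. PLAT (minus strand, 14 exons in its canonical transcript) had 6343, 5042 and 5721 counts in the controls and 0, 0 and 3 in VprBP sh. Only VprBP sh replicate 3, the most deeply sequenced sample, held any PLAT counts. The group ratio was 6355-fold lower (95% counting interval 2174 to 30821), from a control mean of 6025 ± 1086 normalized counts. Without that replicate PLAT was at 0 in VprBP sh and the ratio cannot be given. PLAU (chr10:73909177-73917496, plus strand) had 7760, 7044 and 7964 counts in the controls and 639, 1146 and 1708 in VprBP sh. The knockdown samples were all lower, with replicate 1 the lowest after scaling at 706 normalized counts against 1179 and 1296. Means were 7986 ± 797 and 1060 ± 312, a 7.51-fold lower level (log2 -2.91, SE 0.20), and -2.69 without VprBP sh replicate 1. The antisense lncRNA C10orf55 had only 23 to 84 counts per sample. The ratio of PLAU to PLAT per kb of exon was 3.22, 3.68 and 3.67 in Control sh. In VprBP sh PLAU made up at least 99.9% of the pair in each sample.

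PLAUR (chr19:43646095-43670547, minus strand), the urokinase receptor, had 1429, 1168 and 1278 counts in the controls and 375, 411 and 559 in VprBP sh. It had the smallest difference of the 9, 3.24-fold lower (log2 -1.70, SE 0.13), with means of 1365 ± 239 and 420 ± 5.25 normalized counts. The 3 knockdown samples were nearly equal after scaling. The ratio of PLAU to PLAUR per kb of exon was 8.21, 9.11 and 9.42 in Control sh and 2.58, 4.21 and 4.62 in VprBP sh, so the ligand transcript was lower by more than that of its receptor in every sample. SERPINE2 (chr2:223975045-224039318, minus strand), a thrombin and plasminogen activator inhibitor also called protease nexin-1, had 565, 806 and 958 counts in the controls and 73, 47 and 71 in VprBP sh. Its groups were well apart, at 805 ± 137 and 61.0 ± 17.3 normalized counts, or 13.3-fold lower (log2 -3.74, SE 0.21).

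The order of the transcripts by abundance per length also changed. In TPM, counts per length scaled to the same total in each library, Control sh ranked F3 (mean 1142), THBD (650), PLAU (481), PROCR (151), PLAT (138), PLAUR (54.4), TFPI2 (45.1), SERPINE2 (16) and TFPI (2.64). PROCR and PLAT overlapped across samples in that order, as did PLAUR and TFPI2, and no other neighbours did. In VprBP sh the order was PLAU (69), F3 (32.6), TFPI (26), PLAUR (18.2), SERPINE2 (1.32) and PROCR (0.619), followed by TFPI2, PLAT and THBD, which overlapped at 0.117 TPM or less. TFPI thus moved from the least abundant of the 9 to the third place, while THBD moved from second to last.

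**Figure D2:**
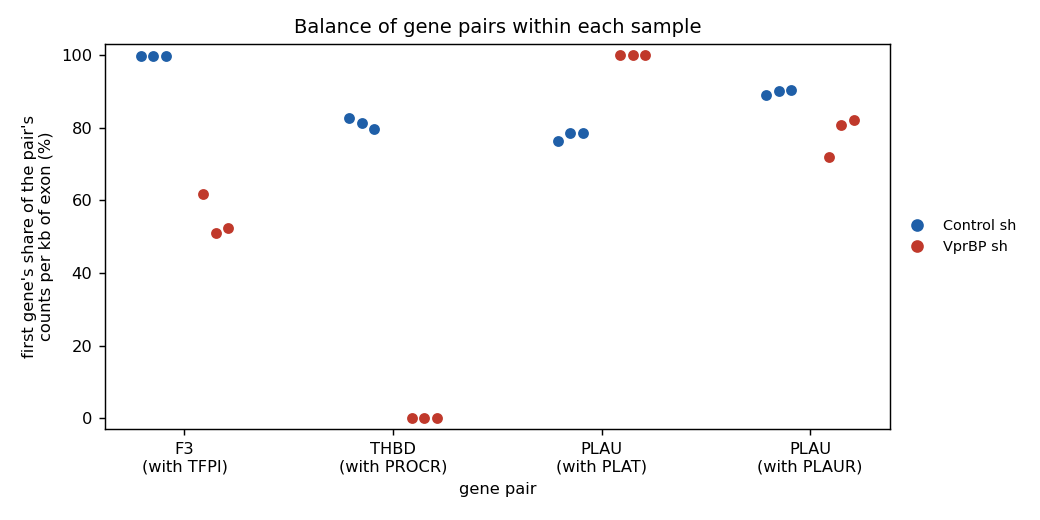
Share of the first gene in the summed counts per kb of exon of a gene pair, in percent, for each sample. F3 took 99.8% of its pair with TFPI in each Control sh sample and 51.1% to 61.8% in VprBP sh, and PLAU took 89.1% to 90.4% of its pair with PLAUR in the controls and 72% to 82.2% after knockdown.

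Other genes of the same pathways were read from 8 lists of 63 genes, 53 of them in the table and 46 tested. In VprBP sh 17 were called down and 9 up, and 20 were not called, where 22.0% of all genes tested were called down and 24.5% up. The median log2 fold change was -0.61 against 0.08 over all genes tested. The lists were drawn up with earlier results of these data known. The protein C list held mostly lower genes, and the clotting factor list mostly higher ones.

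Of 4 tested genes for plasminogen and its inhibitors, 2 were called down and 1 up (22.0% and 24.5% over all genes tested). SERPINB2, an inhibitor of urokinase, had 4795, 3586 and 4244 counts in the controls and 2, 0 and 2 in VprBP sh, 3518-fold lower (95% counting interval 1374 to 12913; adjusted p = 2.52e-09). It was thus lower together with the PLAU transcript, whose product it inhibits. The other called genes, SERPINI1 (down) and A2M (up), had at most 38 counts in any sample, and plasminogen itself, PLG, was not in the table analysed.

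Plasmin is also controlled where plasminogen binds and where urokinase is cleared, and 4 of 9 tested genes of that list were called down and none up (22.0% and 24.5% over all genes tested). With TMM factors or DESeq2 6 were called down, and 3 with library size alone. The collagen receptor MRC2, which associates with the urokinase receptor, had 1976, 1626 and 1839 counts in the controls and 62, 73 and 92 in VprBP sh, a log2 fold change of -4.75 (SE 0.15; adjusted p = 5.96e-09). The endocytic receptor LRP1, which removes urokinase complexed with its inhibitors, had 11253, 7032 and 7464 counts against 500, 694 and 891 (log2 -3.82, SE 0.24; adjusted p = 4.4e-07). The annexin A2 complex, which binds plasminogen and tissue plasminogen activator, fell less, by 1.46 on the log2 scale for ANXA2 and by 1.18 for its partner S100A10. Scaling by library size alone put S100A10 at -0.97, under the 2-fold limit.

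In the protein C, protein S and antithrombin list, 4 of 5 tested genes were called down and none up (22.0% and 24.5% over all genes tested), with a median log2 of -4.67, or -3.06 with genes at 0 set to their bound. HS3ST1, the enzyme that makes the antithrombin-binding form of heparan sulfate, had 1484, 1295 and 1511 counts in the controls and 37, 70 and 82 in VprBP sh (log2 -4.67, SE 0.19; adjusted p = 2.36e-08). PROS1, which encodes protein S, the cofactor of activated protein C, had 124, 235 and 257 counts against 30, 23 and 27 (log2 -3.06, SE 0.29; adjusted p = 7.76e-06). The other called genes, SERPINA5 and SERPINA10, had at most 34 counts in any sample. Requiring 10 counts or more in each sample left 2 genes of the list called down. PROC, which encodes protein C, was low throughout, at 29, 42 and 30 counts against 15, 23 and 27, and was not called.

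Of 7 tested clotting factor and fibrinogen genes, 5 were called up and 1 down (24.5% and 22.0% over all genes tested), with a median log2 of 7.35, or 2.65 with genes at 0 set to their bound. The number called down was 2 without a filter on low counts and without Control sh replicate 3 or any 1 of the VprBP sh replicates. F5 was too low to be tested, at 29, 23 and 9 counts against 1, 1 and 4. F7, the circulating partner of tissue factor, had 0 counts in each Control sh sample and 102, 124 and 158 in VprBP sh, at least 38.0-fold higher (adjusted p = 1.58e-06). FGG, the fibrinogen gamma chain, had 2, 0 and 0 counts against 671, 2487 and 3389, 2937-fold higher by a ratio that rests on 2 counts in Control sh replicate 1, without which the controls are at 0 (95% counting interval 813 to 24257; adjusted p = 1.76e-06), with replicate 1 the lowest of the knockdown samples. The fibrinogen alpha and beta chains, FGA and FGB, were called up as well but had at most 43 counts. F8, the cofactor of factor IX, had 84, 80 and 83 counts against 462, 363 and 545 (log2 2.32, SE 0.17; adjusted p = 1.12e-06). VWF, its carrier, had 183, 128 and 135 counts against 9, 7 and 7 (log2 -4.42, SE 0.33; adjusted p = 1.62e-06), so the pair differed in opposite directions.

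The thrombin receptor gene F2R was called down, from 1024, 1035 and 1093 counts to 482, 462 and 690 (log2 -1.11, SE 0.10; adjusted p = 5.62e-06). Scaling by library size alone gave -0.90, under the 2-fold limit. F2RL1, the other receptor of this family that was tested, differed the other way, at 943, 1064 and 1275 counts against 1556, 1936 and 2585, and was not called (log2 0.73, SE 0.09; adjusted p = 5.29e-05). Of the genes that process or export vitamin K-dependent and other clotting factors, FURIN (log2 -1.38) and the cargo receptor LMAN1 (-1.30) were called down. PCSK6 (1.17) was called up and 4 were not called, where 22.0% of all genes tested were called down and 24.5% up. A further list covered the exposure of phosphatidylserine, the lipid surface on which clotting complexes assemble, and its control. It was not split by whether a gene promotes or opposes exposure. In it TMEM30A (log2 -0.74), ANO6 (-0.68), P4HB (-0.53) and XKR8 (-0.19) had lower means, and ATP11A (0.60) a higher one. These 5 were not called.

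**Figure D3:**
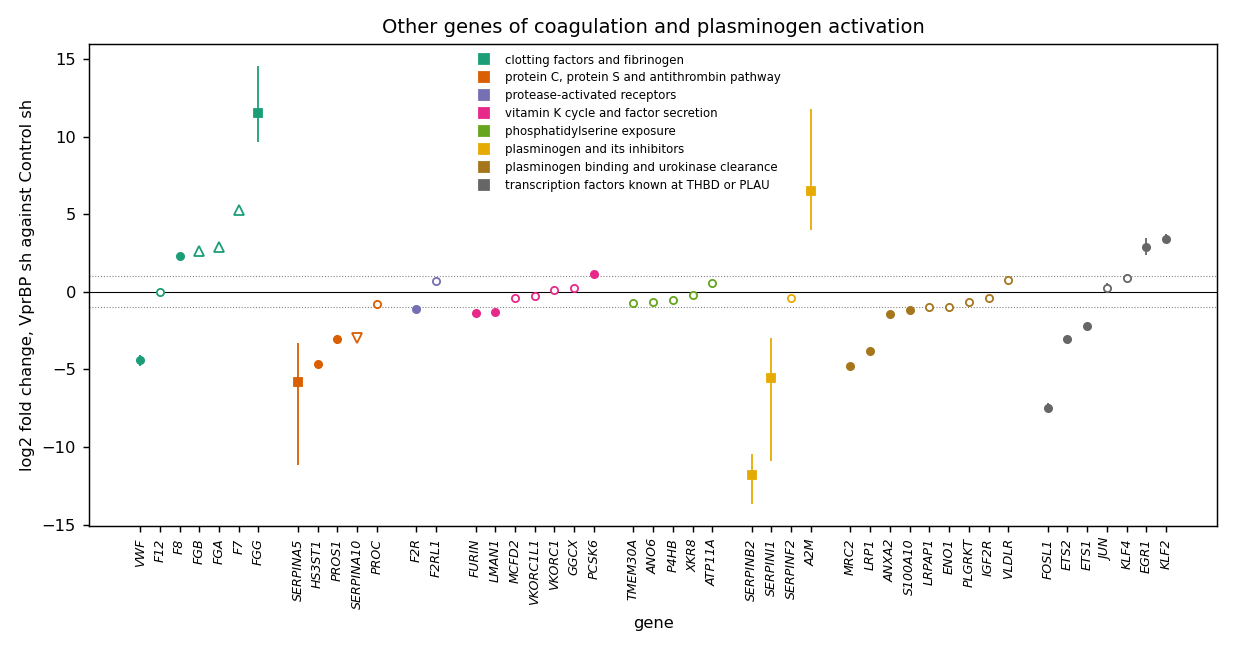
Log2 fold change of the 46 tested pathway genes, coloured by list. Circles are fitted values ± SE (filled when called), squares are ratios of counts with 95% counting intervals, and triangles are bounds against 3 counts per library. SERPINB2 lies lowest and FGG highest.

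Transcription factors with known roles at THBD or PLAU were also read out. Of 7 tested, 3 were called down and 2 up (22.0% and 24.5% over all genes tested). FOSL1, an AP-1 subunit known at the PLAU enhancer, had 3179, 3166 and 3471 counts in the controls and 35, 10 and 16 in VprBP sh (log2 -7.46, SE 0.30; adjusted p = 2.32e-08), and -8.23 without VprBP sh replicate 1. ETS1 (log2 -2.19, SE 0.12; adjusted p = 1.41e-07) and ETS2 (log2 -3.03, SE 0.15; adjusted p = 7.72e-08) fell too. JUN, the usual partner of FOSL1, was not called, at 2539, 1971 and 2271 counts against 4273, 1773 and 2477. KLF4 was not called either, at 426, 217 and 254 counts in the controls against 431, 602 and 849 in VprBP sh (log2 0.86, SE 0.27). KLF2, an activator of THBD in endothelium, had 24, 14 and 30 counts in the controls and 313, 208 and 276 in VprBP sh (log2 3.43, SE 0.30; adjusted p = 4.41e-06), a direction opposite to that of THBD. EGR1 had 1587, 1253 and 1350 counts against 20661, 4943 and 6749 (log2 2.90, SE 0.55; adjusted p = 8.91e-04), and 1.79 without VprBP sh replicate 1, which held the highest count by far.

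Endothelial markers were read because thrombomodulin and the PROCR receptor are typical of that cell type. The 5 endothelial markers summed to between 691 and 716 normalized counts in the controls and between 32.1 and 40.2 after knockdown. CDH5 had 340, 480 and 530 counts in the controls and 1, 2 and 3 in VprBP sh, while PECAM1 had 10 to 24 and 16 to 41 counts and TEK at most 6 in any sample. Of the 4 tested, CDH5, VWF and KDR were called down (22.0% over all genes tested) and PECAM1 was not called. Their part in the results for THBD and PROCR was not tested. THBD in Control sh was at 14780 normalized counts. Such counts are not scaled by gene length. In bulk RNA, neither they nor length-scaled values can show which cells held the THBD transcript.

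The genes around each member were compared by position, which the choice of members did not use. Within 1 Mb of any of the 9 there were 221 genes in the table and 173 tested, of which 37 were called down, 36 up and 100 not, with a median log2 fold change of 0.03. Over all genes tested 22.0% were called down and 24.5% up. The balance moved with the scaling, to 31 down and 48 up with library size alone and 39 down and 30 up with DESeq2. The windows of THBD, TFPI2 and PLAT, the members at or near 0 in VprBP sh, held no gene called up among 7, 9 and 20 tested, and 5, 5 and 3 called down.

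In the window of THBD, 10 of the 14 genes in the table had 0 counts in all 3 VprBP sh samples, where 5.60% of all genes in the table did. This count was made after the values were seen. In the other windows, TFPI, TFPI2 and PLAUR had 1 such gene each and PROCR, F3, PLAT, PLAU and SERPINE2 none. Of the 10 in the window of THBD, only CST3 had a control mean of at least 100 normalized counts. The others were low in the controls already, at 88 counts or fewer in every Control sh sample. CST3, the gene of the protease inhibitor cystatin C, lies 577 kb from THBD and had 13553, 11686 and 12901 counts in the controls and 0, 0 and 0 in VprBP sh, at least 4636-fold lower (adjusted p = 6.13e-09). FOXA2, on the other side, had 72, 73 and 88 counts in Control sh, and CD93, the closest gene to THBD and a relative of thrombomodulin, had 30, 10 and 31, both with 0 counts in each VprBP sh sample; these genes were chosen after their values were seen. Between CD93 and CST3, however, lie genes that kept their transcripts. NXT1, a nuclear export factor 301 kb away, had 809, 1115 and 1319 counts in the controls and 394, 567 and 684 in VprBP sh (log2 -1.13, SE 0.15; adjusted p = 6.73e-05). GZF1 (log2 -0.71) and NAPB (0.01), further along, were not called. Genes without counts in VprBP sh thus lay on both sides of a stretch with retained expression.

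GNG11, a G protein gamma subunit gene 31 kb from TFPI2, had 199, 221 and 294 counts in the controls and 0, 5 and 0 in VprBP sh (log2 -7.19, SE 0.51; adjusted p = 1.06e-06). The antiviral genes SAMD9 (-3.19) and SAMD9L (-2.95) and the sarcoglycan gene SGCE (-1.67) were called down on the log2 scale, and VPS50, BET1, CASD1 and PEG10 were not called. In the window of PLAT, ANK1, which encodes ankyrin 1, had 1042, 1285 and 1422 counts in the controls and 16, 1 and 4 in VprBP sh (log2 -7.59, SE 0.39; adjusted p = 1.23e-07). AP3M2, only 3 kb from PLAT, had 294, 283 and 301 counts against 211, 188 and 292 and was not called. FNTA (-1.14) and HGSNAT (-1.17) were called down and the other 17 tested genes there were not called.

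**Figure D4:**
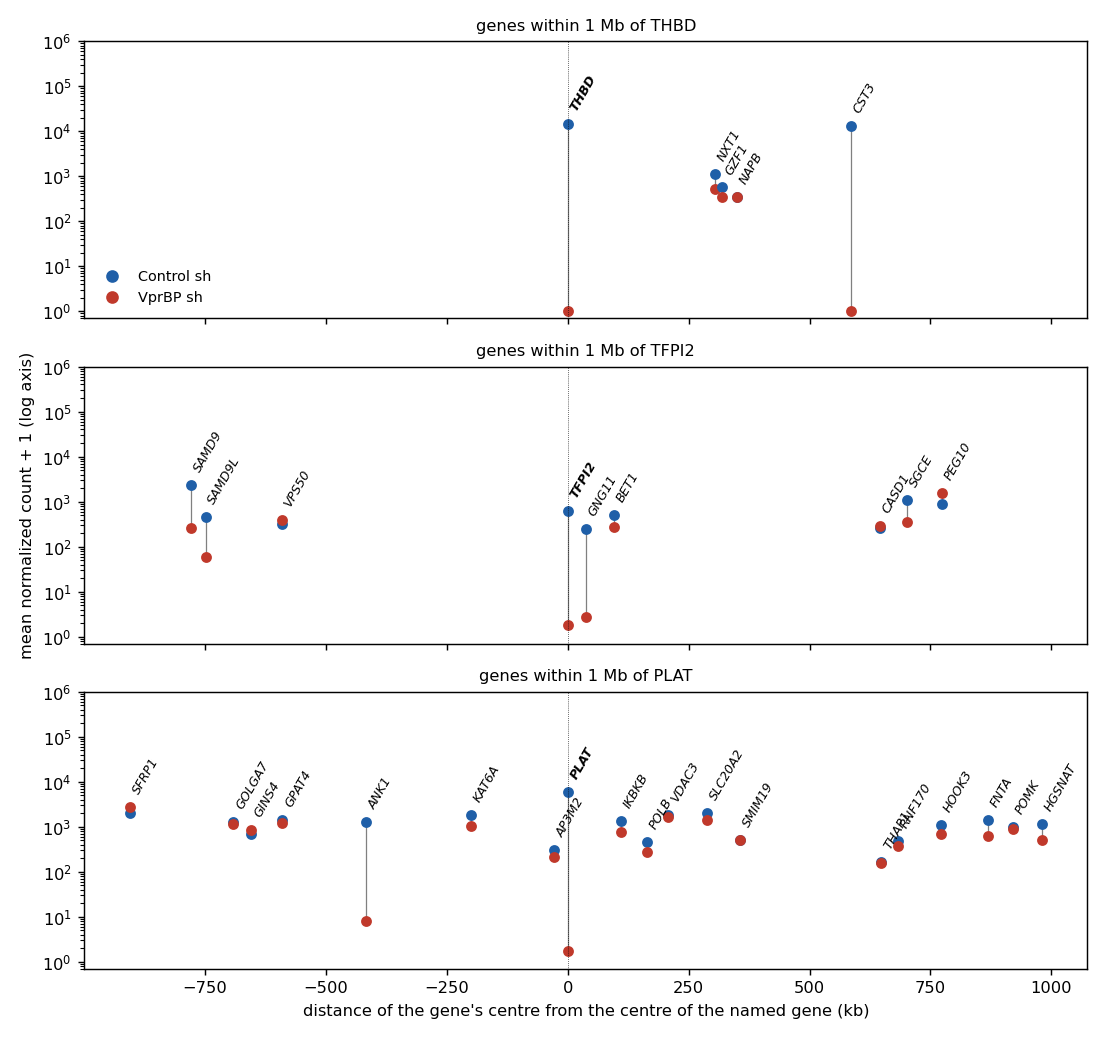
Mean normalized counts plus 1 (log axis) of genes with a mean of at least 100 in either group within 1 Mb of THBD, TFPI2 and PLAT, by distance of gene centres in kb. CST3, GNG11 and ANK1 are at or near 0 in VprBP sh as the named gene is, while NXT1, BET1 and AP3M2 are well detected in both groups.

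The genes whose pattern over the 6 samples was most like that of THBD were CST3, BASP1, DKK3, NGFR and LDHB. Likeness was the Euclidean distance of log2(normalized count + 1), at 0.289 for CST3 and 0.729, 0.940, 1.11 and 1.18 for the others. All 5 had 0 counts in every VprBP sh sample and between 7613 (LDHB) and 13553 (CST3) counts in every Control sh sample. They lie on chromosomes 20, 5, 11, 17 and 12, so CST3 alone shares the chromosome of THBD. With a pseudocount of 10 in place of 1, 2 of the 5 remained.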

How the data were processed

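RNA-seq was measured in 6 samples, 3 Control sh and 3 VprBP sh, grouped by sample titles, which name G361 cells. The authors aligned reads to hg38 with STAR, quantified them in Partek Flow and deposited estimated counts per gene, neither normalized nor pooled; 59.4% of values are whole and each gene sums to at least 10. The labels name a SMARTER kit and the methods a stranded KAPA kit. The members and lists were chosen with earlier results of these data known.

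The design was written for counts, so the values were rounded. edgeR 4.0.16 (R 4.3.3) with upper quartile factors (quantile 0.75), its low-count filter (minimum 10), the quasi-likelihood test and Benjamini-Hochberg adjustment was fitted to all genes, in place of Partek's own test, after a trial on simulated counts. Calls required an adjusted p under 0.05 and a fold change over 2. A group at 0 was set to 3 counts per library. Groups with 1 to 3 counts, for which a bound had been planned, were given a ratio of summed counts with a 95% exact counting interval. Coordinates are those of the deposited table. Exon lengths, for TPM and counts per kb, were those of all annotated exons of a gene together. They and the overlaps came from GENCODE 44, in which 20071 of 21460 genes matched by identifier have the same coordinates.

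Besides the members and DCAF1, genes were named by rule: up to 4 called genes per list with the largest change and a level of 100 normalized counts or more, neighbours within 1 Mb at that level, the 5 nearest to THBD, and markers. Some results for genes of the pathway lists are not reported here, and the list counts leave those genes out. Outside the naming rule are ETS1, TMEM30A, ANO6, P4HB, XKR8, ATP11A, F2RL1, F5, PROC, SERPINA5, SERPINA10, JUN, KLF4, SERPINI1, A2M, FGA, FGB, CD93 and FOXA2. These were chosen after their values were seen. Alternatives were TMM factors, library size alone, DESeq2 1.42.0, other filters, a replicate block, other windows and leaving out each sample.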

Additional observations from a re-analysis of the deposited data

How the results depend on the processing

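The direction of all 9 members held under every alternative that gave a value. Requiring 10 counts or more in each sample removes genes that are at or near 0 in a group by construction, and left 4690 calls in all against 7778, 4 members called down against 8, 12 pathway genes down against 17 and 4 up against 9, and 22 neighbours down against 37. The neighbours called down numbered 21 within 0.5 Mb and 75 within 2 Mb, where 61 were called up. Over the alternatives the log2 fold change ran from -8.20 to -7.77 for PROCR, -5.45 to -5.04 for F3, 3.04 to 3.39 for TFPI, -3.09 to -2.69 for PLAU, -1.82 to -1.48 for PLAUR and -3.97 to -3.52 for SERPINE2. The log2 ratio for TFPI2 ran from -10.17, without VprBP sh replicate 3, to -8.87, that for PLAT from -12.75 to -12.11, and the log2 bound for THBD from -12.44 to -12.10. PLAT gave no ratio without VprBP sh replicate 3, which held all of its counts. Of 236 repeats of a test on 20 genes outside the members, 234 kept the call, F2R and S100A10 under library size alone being the others. DCAF1 was not called under any, though its adjusted p was above 0.05 with library size alone. Of all calls 52.7% were up, against 48.8% with TMM factors, 60.1% with library size alone and 47.7% with DESeq2, and the median change of the whole table, in log2, was 0.08, -0.01, 0.29 and -0.04. The replicate numbers were shared between groups. Deviations of same-numbered samples correlated at -0.156, 0 and -0.109, and those of differently numbered samples at -0.158 to 0.167. No pairing by number was seen, which does not show that the samples were unpaired. With a replicate block 7686 genes were called, 8 members down and 1 up, 17 pathway genes down and 9 up, and 37 neighbours down and 35 up. Values at 0 to 3 counts are limited by depth, and 3 counts correspond to 2.28 to 3.44 normalized counts.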

Other observations

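The 6 windows around the members that kept more than 3 counts in VprBP sh are given beside the shares over all genes tested, 22.0% called down and 24.5% up. Within 1 Mb of PROCR, 12 of 29 tested genes were called down and 2 up. Around PLAU, 12 of 36 were called up and 3 down, and around PLAUR 15 of 46 were called up and 5 down. Around F3, 4 of 16 were called up and 2 down, around TFPI 2 of 6 were called in each direction, and around SERPINE2 1 of 4 was called up. Differences between windows were not tested. The other marker lists were lower or mixed: of 2 tested fibroblast markers PDGFRB was called down, from 28, 13 and 25 counts to 2, 2 and 6, and COL1A1 was not called, and of 2 tested leukocyte and megakaryocyte markers CD14 was called down, from 710, 626 and 670 counts to 120, 456 and 544, and ITGA2B was not called.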
